A study of Mus musculus with 24 samples.

Results

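Classical and atypical cadherins together with immunoglobulin-type cell adhesion molecules were examined in cultured murine pancreatic stellate cells (PSC). The 10 genes were taken by name: the 4 cadherins Cdh2, Cdh3, Cdh11 and Cdh13 and the 6 immunoglobulin-type molecules Vcam1, Icam1, Ncam1, Chl1, L1cam and Alcam, out of 53801 gene rows. All 10 rows were found, and 8 of the 10 genes passed the filter on low values in each of the 4 comparisons of co-culture with control. Cdh13 passed in none of the comparisons made, and L1cam did so in some of those between controls, models or times.

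Cadherins are calcium-dependent transmembrane proteins that mostly bind the same cadherin on the neighbouring cell and connect through catenins to the actin cytoskeleton. Immunoglobulin-type adhesion molecules carry immunoglobulin folds outside the cell and bind either to themselves or to other partners. Among these partners, integrins on leukocytes recognise VCAM1 and ICAM1, while NCAM1, L1CAM, CHL1 and ALCAM also engage in binding of like to like. Several of these proteins are shed from the surface by metalloproteinases of the ADAM family. PSC are the resident fibroblast-like cells of the pancreas, and on fibroblasts a cadherin profile without E-cadherin is typical.

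PSC were isolated by density gradient from pooled pancreata of young adult wild-type C57BL/6J mice of both sexes and used in early passage. They were grown on the upper side of a porous membrane without contact to KPC cells, a single murine pancreatic cancer line from a genetically engineered mouse with p48-Cre. The standard model (distant paracrine co-culture) had the KPC cells on the floor of the well, and the inverse model (close paracrine co-culture) had them attached to the underside of the same membrane. RNA of PSC was sequenced after 24 h and 72 h, each co-culture with its own mono-cultured control, which gave 8 groups of 3 libraries and 24 libraries in all. Libraries were built from 450 ng of total RNA in the standard and 120 ng in the inverse model, and in the inverse model both cell types shared the well for an additional day, so that model, RNA input and time together cannot be told apart. Cells were detached with trypsin before lysis. Nothing in the labels says whether the 3 libraries of a group came from separate isolations, hence all p-values measure the spread between these libraries only.

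The libraries held 15932737 to 24798761 counted fragments with a median of 18860269, and the members rested on anything between 0 fragments (Cdh13, Chl1 and L1cam in single libraries) and 7699 fragments (Vcam1). All 10 genes listed as stellate cell and fibroblast markers exceeded an FPKM (fragment count scaled to gene length and library total) of 1 in every library. Gfap was not among them but listed with the Schwann and neural markers, and it stayed at or below 0.2375 FPKM. The paper describes its PSC as positive for GFAP protein by staining. Replicate 1 of the standard model stood apart with low Cdh11, Vcam1, Icam1 and Chl1, and replicate 2 of the standard model carried summed macrophage markers of 345 to 1134 FPKM against 37.3 to 160.8 FPKM in replicates 1 and 3. In inverse co-culture, the summed KPC and epithelial markers reached 1.504 to 43.2 FPKM against 0 to 0.587 FPKM in the inverse controls, with the highest sum in replicate 2 at 24 h. Endothelial markers summed to 1.24 to 2.98 FPKM and Schwann and neural markers to 0.517 to 2.03 FPKM over all libraries. Mesothelial markers summed to 14.3 to 48.5 FPKM, mostly from Wt1 at 12.7 to 37.5 FPKM. Their lowest sum was in replicate 1 of the standard 24 h control. In the inverse model at 24 h they summed to 32.8 to 42.1 FPKM in co-culture and 20.5 to 24.9 FPKM in the controls. The ranges overlapped at 72 h.

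To show the regulatory sequence next to the start of the members whose levels moved or varied most, the stretches from 250 bases before to 50 bases after the RefSeq start (GRCm38.p6, 5′ to 3′ on the strand of the gene) are given for Alcam, Icam1 and Chl1. 4 of the 10 members had an entry in this collection of 32851 promoters. Capitals mark matches on either strand to the kappa B consensus, to TGANTCA (AP-1), to TTCNNNGAA (the gamma-activated sequence bound by STAT factors), to TATAAA and to GGGCGG (GC box). The kappa B consensus was taken strictly as GGGRNWYYCC (R is A or G, W is A or T, Y is C or T, N any base).
Alcam, chr16:52453032-52453331, minus strand: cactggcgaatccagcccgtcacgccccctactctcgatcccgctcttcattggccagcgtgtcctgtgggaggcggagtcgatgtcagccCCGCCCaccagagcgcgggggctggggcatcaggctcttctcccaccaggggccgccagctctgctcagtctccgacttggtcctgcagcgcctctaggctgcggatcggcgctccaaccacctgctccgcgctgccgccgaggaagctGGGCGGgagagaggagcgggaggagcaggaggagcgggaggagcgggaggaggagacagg
Icam1, chr9:21015690-21015989, plus strand: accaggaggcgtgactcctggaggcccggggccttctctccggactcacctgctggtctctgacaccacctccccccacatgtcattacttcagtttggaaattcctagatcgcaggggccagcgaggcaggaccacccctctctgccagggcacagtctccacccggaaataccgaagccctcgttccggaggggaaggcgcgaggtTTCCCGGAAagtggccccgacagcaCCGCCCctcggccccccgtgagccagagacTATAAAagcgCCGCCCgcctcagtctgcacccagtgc
Chl1, chr6:103510626-103510925, plus strand: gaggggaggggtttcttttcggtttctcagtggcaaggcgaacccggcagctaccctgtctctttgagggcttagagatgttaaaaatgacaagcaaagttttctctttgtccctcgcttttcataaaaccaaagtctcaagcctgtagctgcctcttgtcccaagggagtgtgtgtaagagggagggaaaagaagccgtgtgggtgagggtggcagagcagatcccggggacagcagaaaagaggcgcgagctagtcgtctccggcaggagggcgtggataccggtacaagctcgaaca
The Alcam stretch held 2 GC boxes, at positions -159 and -10 from the start, and no match to the other 4 motifs. In the Icam1 stretch, a TTCNNNGAA match began at position -42 and TATAAA at position 14 by the RefSeq start, which is 32 bases before the gene start of GENCODE. 2 further GC boxes in Icam1 overlapped none of these matches. The Icam1 stretch also holds tggaaattcc, which departs from the strict kappa B pattern in its first base only and so is not in capitals. The absence of a strict match therefore does not show that a kappa B site is absent. The Chl1 stretch had no match to any of the 5 motifs. By GENCODE, the Alcam and Chl1 stretches lay inside their genes (chr16:52248996-52454074 and chr6:103510586-103750211), downstream of the annotated gene starts. Of all promoters in the collection, 35.7% held GGGCGG, 13.6% TATAAA, 8.3% TTCNNNGAA, 7.81% TGANTCA and 4.51% the kappa B consensus. GC content was 69.7% for Alcam, 64.7% for Icam1 and 53.7% for Chl1, with 25, 19 and 13 CpG dinucleotides, compared to a median of 52.7% and 7 CpG over the collection.

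The members covered a wide range of expression per length. Ordered by their median FPKM over the 24 libraries, Vcam1 was highest at 77.3 FPKM (range 29.2 to 147), followed by Cdh11 at 50.8 FPKM (27.7 to 84.7) and Ncam1 at 27.7 FPKM (17.4 to 43.8). Icam1 had a median of 14.5 FPKM (2.90 to 36.3), Cdh2 of 8.86 FPKM (6.56 to 13.04), Alcam of 7.45 FPKM (1.68 to 18.6) and Chl1 of 4.44 FPKM (0 to 28.4). Cdh3 at 1.53 FPKM, Cdh13 at 0.484 FPKM and L1cam at 0.412 FPKM were at the lower end, and Cdh13 exceeded 1 FPKM in 2 and L1cam in 5 of 24 libraries. Ranges of all neighbours in this order overlapped. Levels of different genes rest on the gene lengths behind the deposited FPKM, which were shorter than the full exon length for 9 of the 10 members, such as 1916 against 7121 bases for Alcam and 2709 against 8870 bases for Vcam1.

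**Figure D1:**
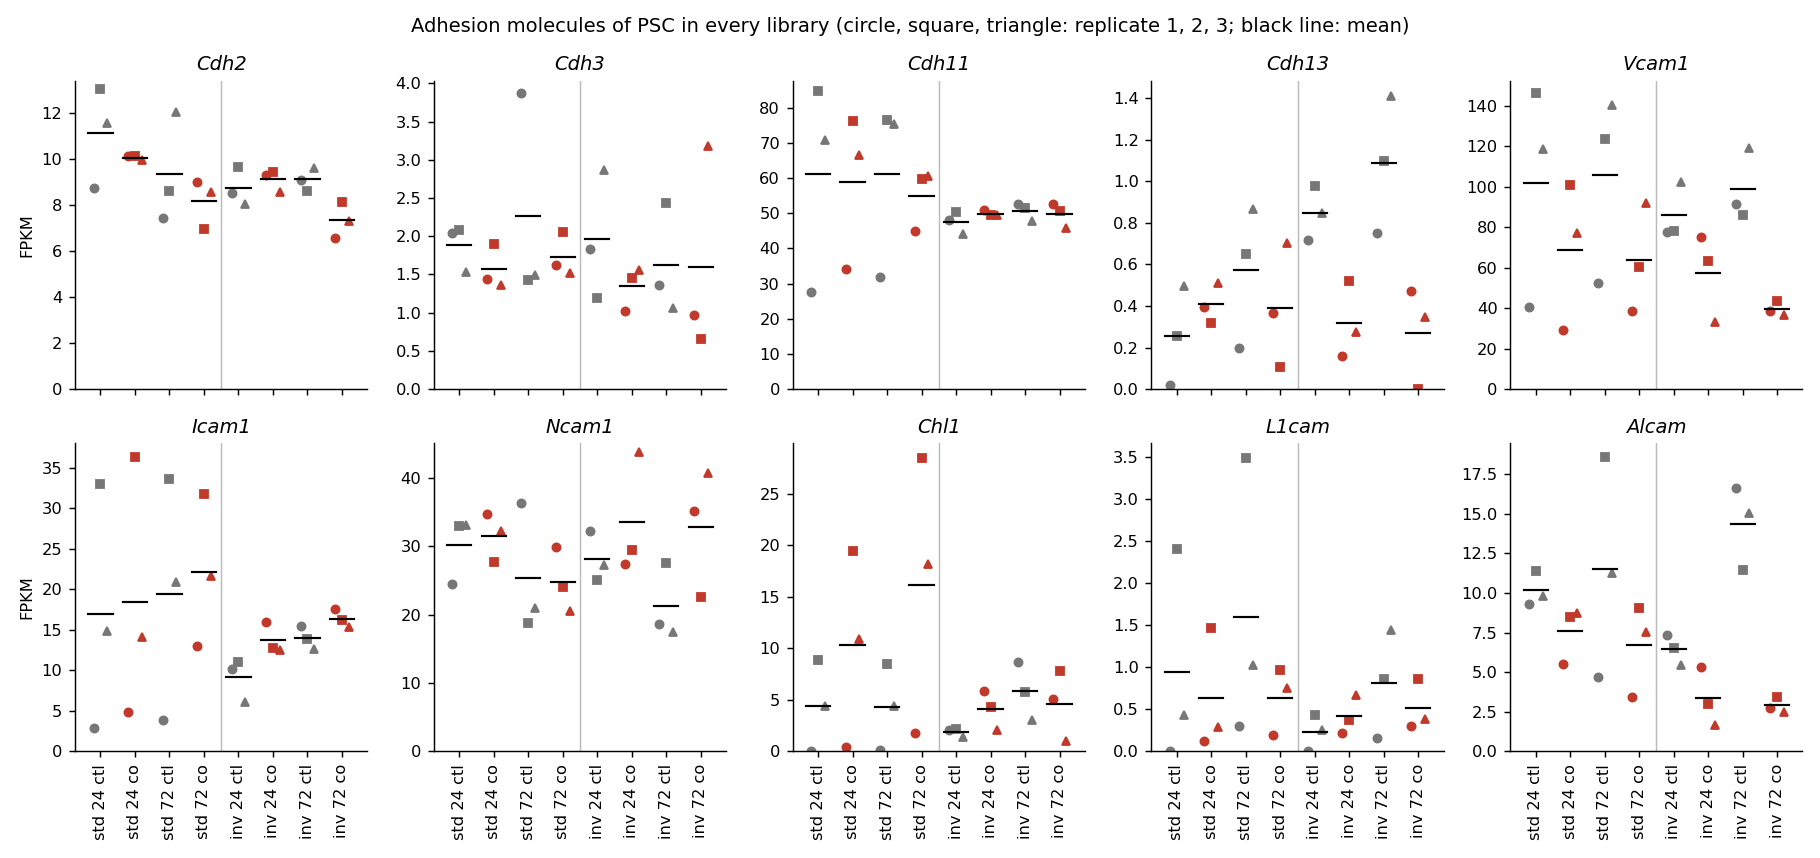
FPKM (vertical axes, linear, from 0) of each of the 10 members in all 24 libraries, by group on the horizontal axis (std standard, inv inverse, 24 and 72 hours, ctl control in grey, co co-culture in red), with symbols for replicates 1, 2 and 3 and a black line at the mean of 3 libraries. Alcam and Vcam1 in inverse co-culture at 72 h lie below their controls without overlap, and the standard model shows a wide spread between replicates for Vcam1, Cdh11, Icam1 and Chl1.

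Replicates scattered more in the standard than in the inverse model for most members. The pooled SD between replicates of a group on the log2 scale was 2.13 for Chl1, 1.37 for Icam1, 0.84 for Vcam1 and 0.65 for Cdh11 in the standard model. In the inverse model the same SD was 0.81, 0.25, 0.36 and 0.08 for these genes. Ncam1 had nearly the same SD in both models (0.32 and 0.34), and that of Cdh3 was lower in the standard (0.37) than in the inverse model (0.57).

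The lower expression of Alcam and Vcam1 after 72 h of inverse co-culture was the only difference between a co-culture and its control that passed the test among the members in the fit without pairing. Alcam (chr16:52248996-52454074, minus strand of GRCm38) encodes a receptor that binds CD6 on T cells as well as itself. Its FPKM in inverse co-culture at 72 h were 2.76, 3.45 and 2.51, and those of the controls 16.7, 11.46 and 15.1. All 3 co-culture libraries thus lay below all 3 controls, with means of 2.91 ± 0.48 against 14.4 ± 2.66 FPKM (SD, n = 3 each). In limma on log2(FPKM + 0.5), Alcam fell by 2.12 on the log2 scale (SE 0.19, adjusted p = 0.00332), which is 4.35-fold.

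Vcam1 (chr3:116109949-116129688, minus strand) encodes the endothelial and stromal ligand of integrins that contain the Itga4 subunit. In inverse co-culture at 72 h its FPKM were 38.6, 43.3 and 36.5, as opposed to 91.6, 85.9 and 119 in the controls. Again no co-culture library reached the lowest control, and the means were 39.5 ± 3.53 and 98.9 ± 17.7 FPKM (SD, n = 3 each). Vcam1 fell by 1.30 on the log2 scale (SE 0.14, adjusted p = 0.00449), a 2.47-fold difference. With all 24 libraries in a common model, the adjusted p of Vcam1 was 0.102 and that of Alcam stayed below 0.05. In this comparison 1678 of 13066 genes tested were called, or 12.8%, and 9.57% of all genes were called lower, so that 2 of 8 members tested is not far from the background. The members had a median log2 fold change of -0.22 beside -0.16 over all genes. No overlap between groups was seen for 3 of 8 members (Alcam, Vcam1 and Cdh2), with 38.3% of all genes tested.

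**Figure D2:**
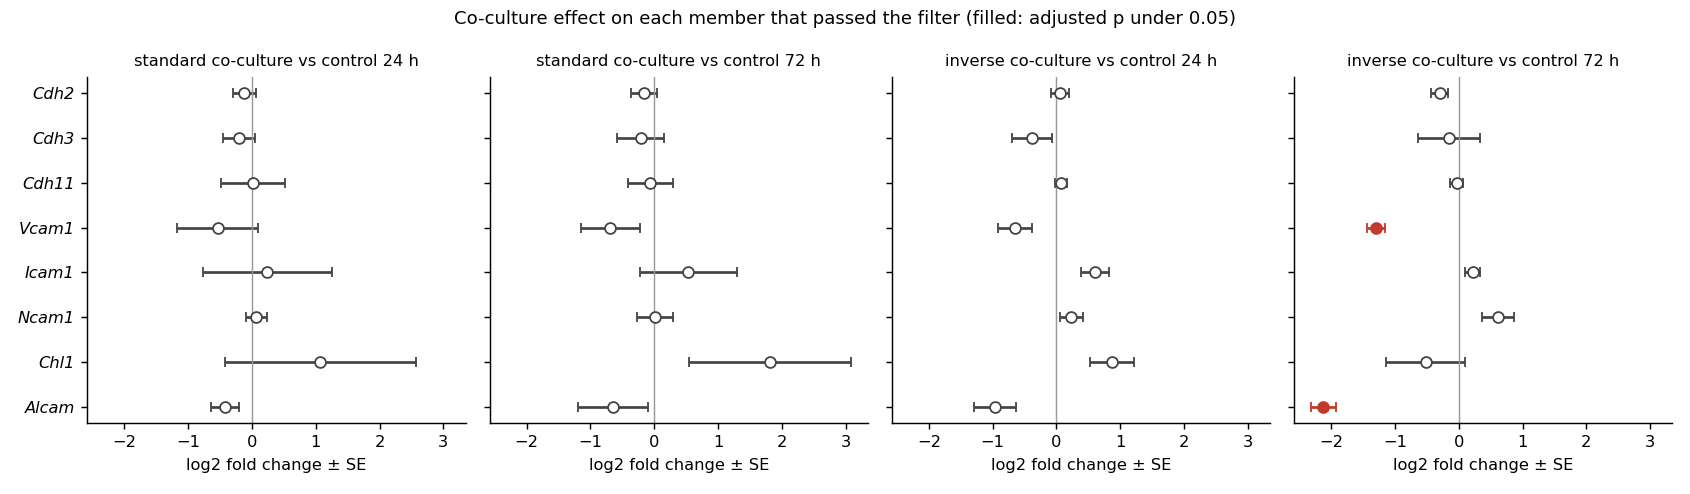
Log2 fold change of co-culture over control with its SE (horizontal axis, on log2(FPKM + 0.5)) for the 8 members that passed the filter, in both models at both times. Filled red points mark an adjusted p under 0.05, which only Alcam (-2.12) and Vcam1 (-1.30) reach, both in the inverse model at 72 h.

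Macrophage markers moved with this result. Their sum over 8 genes was 48.0 to 78.6 FPKM in inverse co-culture and 119 to 221 FPKM in the controls at 72 h, and 5 of the 6 markers tested were lower, for instance Lyz2 (lysozyme) by 1.30 on the log2 scale (SE 0.25, adjusted p = 0.0185) and Adgre1 (the F4/80 antigen) by 1.75 (SE 0.30, adjusted p = 0.0132). Of all genes tested, 9.57% were called lower in this comparison. Lyz2 made up most of the sum, at 59.8, 64.6 and 41.5 FPKM in co-culture and 152, 93.6 and 172 FPKM in the controls. In bulk samples, fewer cells of a type and less RNA per cell cannot be told apart. In the standard controls at 72 h, marker sums of 37.3, 1134 and 158.8 FPKM in replicates 1, 2 and 3 stood beside Alcam at 4.67, 18.6 and 11.2 FPKM and Vcam1 at 52.5, 124 and 140.5 FPKM. The part of macrophages in the lower Alcam and Vcam1 was not tested. KPC and epithelial markers in these libraries summed to 3.64, 1.504 and 8.17 FPKM in co-culture against 0.338, 0.116 and 0 FPKM in the controls, and Krt19, a keratin that mesothelial cells also express, was higher by 2.03 on the log2 scale (SE 0.40, adjusted p = 0.0189). Krt8 was at 0.919, 0.088 and 3.14 FPKM and Krt18 at 0.383, 0 and 1.23 FPKM in these co-cultures, and both were at 0 in all 3 controls. Epcam was at 0 in all 6 libraries, and Cdh1 was at 0.0534, 0 and 0.153 FPKM in co-culture and at 0 in the controls. Without replicate 3 of the co-culture, which had the highest sum, the log2 fold changes were -2.04 for Alcam and -1.25 for Vcam1, both called, while the remaining co-cultures kept sums of 3.64 and 1.504 FPKM. The part of KPC RNA in the lower Alcam and Vcam1 was not tested.

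**Figure D3:**
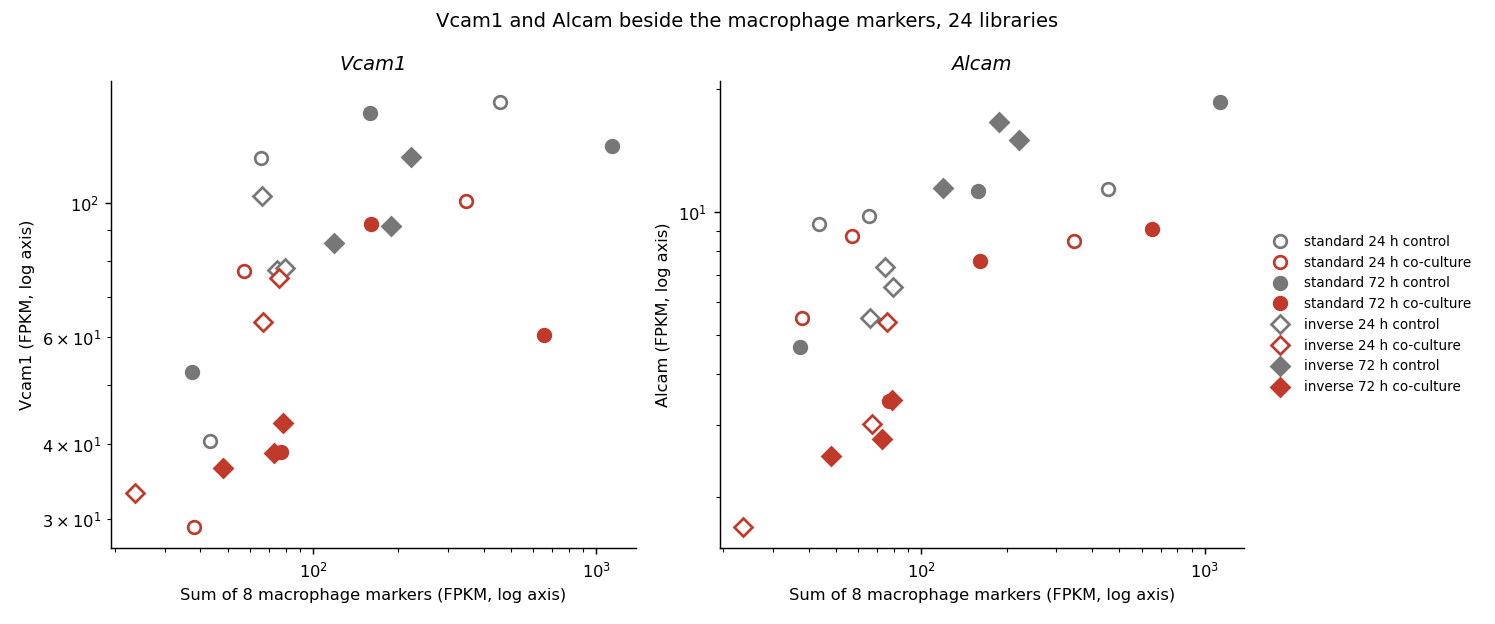
Vcam1 (left) and Alcam (right) in FPKM on the vertical log axis against the summed FPKM of 8 macrophage markers on the horizontal log axis, 1 point for each of the 24 libraries (circles standard, diamonds inverse, open 24 h, filled 72 h, grey control, red co-culture). The inverse co-cultures at 72 h have marker sums of 48.0 to 78.6 FPKM and lie below the inverse controls at 119 to 221 FPKM on both axes. The library with the highest marker sum, 1134 FPKM, is a standard control at 72 h with Vcam1 at 124 FPKM and Alcam at 18.6 FPKM. Lyz2 alone accounts for 915 FPKM of that sum.

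At 24 h of inverse co-culture, no member passed the adjusted p limit, with 317 of 12827 genes called (2.47%). Alcam was at 5.36, 3.01 and 1.68 FPKM in co-culture and 7.34, 6.55 and 5.48 FPKM in the controls, so that the groups did not overlap (log2 fold change -0.96, SE 0.33, adjusted p = 0.202). Vcam1 was at 75.0, 63.4 and 33.1 FPKM against 77.5, 78.1 and 102 FPKM, also without overlap, and replicate 3 was the lowest of the co-cultures for both genes (log2 fold change -0.65, SE 0.27, adjusted p = 0.302). This library also had the lowest macrophage marker sum of all libraries, 23.5 FPKM. Icam1 (chr9:21015985-21028817, plus strand), an NF-kB-inducible ligand of the leukocyte integrins with the Itgb2 subunit, had 16.0, 12.8 and 12.6 FPKM in co-culture. Its controls lay at 10.2, 11.03 and 6.15 FPKM, all of them lower, and the log2 fold change of 0.60 (SE 0.22) had an adjusted p of 0.232. Chl1 (chr6:103510586-103750211, plus strand), a member of the L1 family, was at 5.82, 4.31 and 2.08 FPKM in co-culture and 2.10, 2.15 and 1.36 FPKM in the controls with overlapping groups (log2 fold change 0.87, SE 0.34, adjusted p = 0.270). Non-overlapping groups were found for 3 of 8 members and 21.2% of all genes. When single libraries were left out, Alcam was called without replicate 1 and Chl1 without replicate 3 of the co-culture. The members' median log2 fold change was 0.07 beside -0.06 over all genes.

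The level of Alcam in the inverse controls was itself not constant. In mono-cultured PSC of the inverse model, Alcam was higher at 72 h than at 24 h by 1.09 on the log2 scale (SE 0.17, adjusted p = 0.00447), from 6.46 ± 0.93 to 14.4 ± 2.66 FPKM (SD, n = 3 each). In co-culture, by contrast, its mean was 3.35 ± 1.86 FPKM at 24 h and 2.91 ± 0.48 FPKM at 72 h. Chl1 was higher by 1.33 in the later controls (SE 0.33, adjusted p = 0.0252), at 8.65, 5.76 and 3.09 FPKM compared to 2.10, 2.15 and 1.36 FPKM. At 72 h the co-culture had Chl1 at 5.04, 7.79 and 1.01 FPKM, so that the groups overlapped (log2 fold change -0.52, SE 0.62, adjusted p = 0.598). Both comparisons contain the same 72 h controls. Between the inverse controls 19.2% of 13092 genes were called, 10.2% of all genes tested as higher at 72 h, and 2 of 8 members were called, both higher. Macrophage markers moved here as well: 5 of 6 tested were higher at 72 h, and their sum was 65.9 to 79.6 FPKM at 24 h and 119 to 221 FPKM at 72 h. Their part in these differences was not tested. Vcam1 differed between the control times by 0.20 (SE 0.15, adjusted p = 0.396) and Icam1 by 0.62 (SE 0.21, adjusted p = 0.0668). With all 24 libraries in a common model neither Alcam (adjusted p = 0.164) nor Chl1 (adjusted p = 0.554) was called. Alcam was called in 14 of 15 alternatives, but Chl1 in only 7 of 14: its call was also lost without a filter (adjusted p = 0.0907), without any single 24 h control, and without replicate 1 or 2 of the 72 h controls. In the standard controls 0% of 12963 genes were called between the times (127 at an unadjusted p below 0.05), and Alcam had a log2 fold change of -0.02 (SE 0.46).

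In the standard model, no member and 0% of 12859 genes at 24 h and 0% of 12863 genes at 72 h passed the test without pairing, with 371 and 800 genes at an unadjusted p below 0.05. Here the 3 replicate numbers, which carry no stated pairing, were taken to pair the libraries from the values themselves. Deviations of same-numbered co-culture and control libraries from their group means correlated over genes at 0.55 to 0.823 at 24 h and 0.478 to 0.602 at 72 h. Chl1 was higher in the co-culture of each number, with 0.45, 19.4 and 10.9 FPKM at 24 h against 0, 8.84 and 4.44 FPKM in the controls of replicates 1, 2 and 3. The differences within a number were 0.92, 1.09 and 1.21 on the log2(FPKM + 0.5) scale, although the levels of the 3 replicates lay far apart. In replicate 1 these values rested on 32 fragments in co-culture and 0 in the control, so that its difference depends on the pseudocount. When the replicate number entered the model as a block, the log2 fold change of 1.07 had an SE of 0.17 and an adjusted p of 0.0437, while without the block the SE was 1.5. This call was lost with a pseudocount of 1 (log2 fold change 0.91, adjusted p = 0.0694) or 0.1 (1.62, adjusted p = 0.0853) and with voom on fragments (1.24, SE 0.98, adjusted p = 0.626), each with the block. Without both replicate 1 libraries, the blocked log2 fold change was 1.15 (SE 0.13, adjusted p = 0.00264). Voom without the block gave 3.37 (SE 3.06).

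At 72 h of standard co-culture, Chl1 was at 1.82, 28.4 and 18.1 FPKM against 0.15, 8.48 and 4.43 FPKM. Within the numbers it was higher by 1.83, 1.69 and 1.92, and the log2 fold change was 1.81 (SE 0.16 with the block, adjusted p = 0.130, SE 1.27 without). Vcam1 was lower within each number at 24 h, with 29.2, 101 and 77.02 FPKM in co-culture and 40.5, 146.5 and 119 FPKM in the controls. Its log2 fold change of -0.54 had an SE of 0.07 and an adjusted p of 0.0297 with the replicate block, and an SE of 0.64 without it. With the block, Vcam1 was also called at both other pseudocounts, with voom (adjusted p = 0.0101) and without both replicate 1 libraries (adjusted p = 0.00238). At 72 h Vcam1 was at 38.8, 60.4 and 92.2 FPKM against 52.5, 124 and 140.5 FPKM, again lower in 3 of 3 pairs (log2 fold change -0.69, SE 0.15, adjusted p = 0.319 with the block). With the block, 2 of 8 members were called at 24 h and 0 of 8 at 72 h, with 1.22% and 0.00777% of all genes.

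Alcam was lower in 3 of 3 pairs at both times of standard co-culture. Other members also had the same direction in 3 of 3 pairs: Cdh3 (lower) and Cdh13 (higher) at 24 h, and L1cam (lower) at 72 h. The share of all genes with such agreement was not counted. Same-numbered standard controls of 24 h and 72 h deviated together as well (correlations 0.479 to 0.766), so the times are not independent repeats. At 24 h it was at 5.49, 8.51 and 8.72 FPKM against 9.34, 11.4 and 9.79 FPKM, the single member without overlap at that time (7.73% of all genes), and the log2 fold change of -0.42 had an SE of 0.15 and an adjusted p of 0.241 with the block. At 72 h the values were 3.44, 9.06 and 7.57 FPKM against 4.67, 18.6 and 11.2 FPKM (log2 fold change -0.64, SE 0.18, adjusted p = 0.370 with the block). No member was without overlap at 72 h, with 13.1% of all genes. Icam1 showed no common direction over the numbers: it differed within a number by 0.67, 0.14 and -0.08 at 24 h and by 1.61, -0.08 and 0.05 at 72 h, and replicate 1, the lowest throughout, had the largest difference each time. Without both replicate 1 libraries, the log2 fold changes were 1.15 and 1.80 for Chl1, -0.58 and -0.82 for Vcam1, and 0.03 and -0.01 for Icam1 at 24 h and 72 h. Without both replicate 2 libraries, those with the high macrophage markers, Vcam1 had a log2 fold change of -0.54 at 24 h and -0.52 at 72 h. The remaining libraries kept marker sums of 37.3 to 160.8 FPKM, and the part of macrophages in this difference was not tested.

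**Figure D4:**
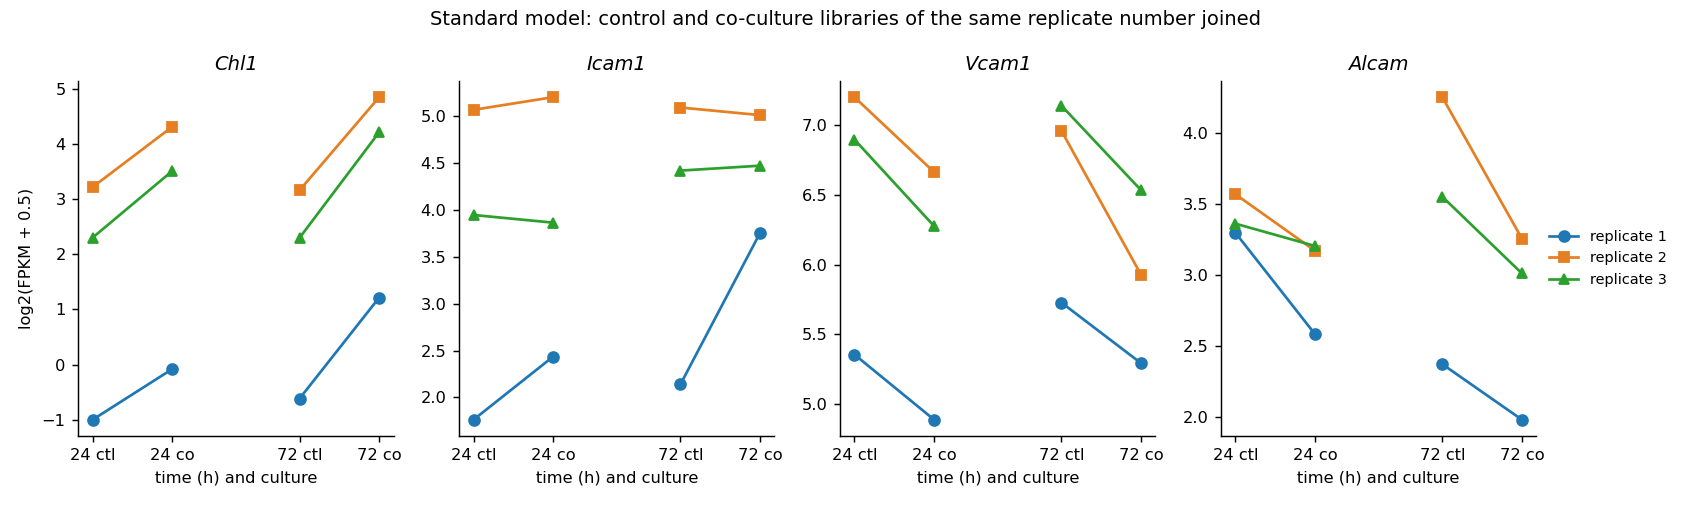
Log2(FPKM + 0.5) of Chl1, Icam1, Vcam1 and Alcam (vertical axes) in the standard model, control and co-culture of both times on the horizontal axis, lines joining libraries of the same replicate number (blue 1, orange 2, green 3). All 3 lines rise for Chl1 and fall for Vcam1 and Alcam at both times, while the lines lie far apart, with replicate 1 lowest in each panel.

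The difference between the models was tested directly. At 24 h and at 72 h 0% of 13554 and 0% of 13775 genes differed in their co-culture effect (163 and 474 at an unadjusted p below 0.05 in limma), and no member did in the fit without pairing. Chl1 had the widest gap at 72 h, where the inverse effect was lower than the standard effect by 2.34 on the log2 scale (SE 1.71, adjusted p = 0.996). With the replicate block, its SE was 0.40 and the adjusted p 0.0410, and 0.116% of all genes were called. The numbers were taken to pair libraries in the standard model only, however. That call was lost with a pseudocount of 0.1 (adjusted p = 0.0927) and without both standard replicate 1 libraries (adjusted p = 0.121). The effect on Alcam at 72 h was more negative in the inverse model by 1.48 (SE 0.56, adjusted p = 0.996), and that on Vcam1 by 0.61 (SE 0.69, adjusted p = 0.996). Between the times, 0% of 13722 genes in the inverse model and 0% of 13694 genes in the standard model differed in their co-culture effect, with 1471 and 141 genes at an unadjusted p below 0.05. For Alcam the inverse effect was lower at 72 h than at 24 h by 1.16 (SE 0.41, adjusted p = 0.370), and for Vcam1 by 0.65 (SE 0.35, adjusted p = 0.512). The mono-cultured controls of both models were compared as well, with 0% of 12903 genes called at 24 h and 0% of 13106 genes at 72 h (225 and 810 at an unadjusted p below 0.05). At 24 h Alcam was lower in the inverse controls with a log2 difference of -0.62 (SE 0.18, adjusted p = 1.0), at 6.46 ± 0.93 compared to 10.2 ± 1.07 FPKM (SD, n = 3 each), and Vcam1 differed by -0.06 (SE 0.46) at 24 h and 0.01 (SE 0.37) at 72 h.

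No cadherin passed the test in any of the 12 comparisons. Cdh11 (chr8:102632095-102785642, minus strand), the mesenchymal OB-cadherin and the highest cadherin here, was most even in the inverse model, where 12 libraries lay between 44.15 and 52.63 FPKM. Its inverse log2 fold changes were 0.07 (SE 0.10) at 24 h and -0.03 (SE 0.10) at 72 h, the latter turning to 0.13 after median-ratio scaling. Cdh2, the N-cadherin of mesenchymal and neural cells, was at 6.56, 8.14 and 7.28 FPKM in the 72 h inverse co-culture and at 9.09, 8.60 and 9.60 FPKM in its controls, without overlap and with a log2 fold change of -0.30 (SE 0.14, adjusted p = 0.189). In the standard model Cdh2 overlapped at both times, with log2 fold changes of -0.12 (SE 0.18) and -0.16 (SE 0.21). Cdh3 (chr8:106510891-106557297, plus strand), the P-cadherin, stayed between 0.655 and 3.87 FPKM with overlapping groups throughout, and its log2 fold changes ranged from -0.38 (SE 0.31) to -0.15 (SE 0.48) over the 4 co-cultures.

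Cdh13 (chr8:118283733-119324921, plus strand), the T-cadherin that is anchored by a lipid and lacks a cytoplasmic domain, rested on 0 to 68 fragments per library. In inverse co-culture it was at 0.16, 0.52 and 0.28 FPKM at 24 h against 0.72, 0.98 and 0.85 FPKM, and at 0.47, 0 and 0.35 FPKM at 72 h against 0.75, 1.10 and 1.41 FPKM. Both co-cultures lay below their controls without overlap. Of all genes tested, 21.2% at 24 h and 38.3% at 72 h had groups without overlap in either direction. In the fit without a filter, its log2 fold changes were -0.74 (SE 0.24, adjusted p = 0.332) and -1.07 (SE 0.33, adjusted p = 0.134).

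Ncam1 (chr9:49502136-49798925, minus strand), which binds to itself on neighbouring cells, was at 35.2, 22.6 and 40.8 FPKM in the 72 h inverse co-culture and at 18.7, 27.6 and 17.4 FPKM in the controls. Replicate 2 was the lowest co-culture and the highest control, and the groups overlapped (log2 fold change 0.61, SE 0.25, adjusted p = 0.141). Without replicate 2 of the co-culture Ncam1 was called with a log2 fold change of 0.85. In the standard model its log2 fold changes were 0.07 (SE 0.17) at 24 h and 0.01 (SE 0.28) at 72 h. Icam1 at 72 h of inverse co-culture was at 17.6, 16.2 and 15.3 FPKM against 15.4, 13.8 and 12.6 FPKM (log2 fold change 0.22, SE 0.12, adjusted p = 0.254). L1cam (chrX:73853778-73896105, minus strand), best known as a neuronal adhesion molecule, rested on 0 to 106 fragments and had its 3 highest values in replicate 2 of the standard model, at 3.48 FPKM in the 72 h control, 2.40 FPKM in the 24 h control and 1.47 FPKM in the 24 h co-culture.

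Genes that act with the members were read from 6 further lists. Of all genes tested in the inverse model, 2.47% were called at 24 h and 12.8% at 72 h (9.57% as lower). In the standard model none of their genes passed the test without pairing at either time. For the inverse model, catenins and linkers gave 2 lower of 13 tested at 24 h, the actin linker Vcl (vinculin, log2 fold change -0.57) and Ctnnal1 (-1.09), and 2 lower of 13 at 72 h, Jup (plakoglobin, -0.62) and Ctnnal1 (-1.47). The list of other cadherins had a single gene tested, which was not called. Protocadherins and desmosomal cadherins had 1 higher of 8 at 24 h, Pcdh10, and 2 higher of 9 at 72 h, Pcdh10 and Dchs1 (1.28). Pcdh10 was at 3.21, 3.04 and 4.56 FPKM in the 72 h inverse co-culture and at 0.473, 0.122 and 0.353 FPKM in the controls, a log2 fold change of 2.34 (SE 0.31, adjusted p = 0.00667). The standard 72 h co-culture had Pcdh10 at 2.37, 1.65 and 2.06 FPKM and its controls at 0.0884, 0.734 and 0.522 FPKM. These groups did not overlap either, which held for 13.1% of all genes tested. The paper lists Pcdh10 among its differentially expressed genes of standard co-culture at 72 h.

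Of the other immunoglobulin-type molecules, 2 of 28 were lower at 24 h, Mcam (-1.90) and Bcam (-0.73), and none was higher. At 72 h 5 of 27 were higher and 2 lower, with 12.8% of all genes called in either direction. Cadm4, a nectin-like molecule, had 75.3, 51.1 and 125 FPKM in inverse co-culture and 16.8, 15.8 and 14.5 FPKM in its controls (log2 fold change 2.29, SE 0.28, adjusted p = 0.00593). Cxadr, the coxsackievirus and adenovirus receptor of cell junctions, was higher by 1.16, the L1-family member Nrcam by 0.80 and Cadm3 by 0.69. Mcam, the CD146 antigen of pericytes and endothelium, fell by 2.16 on the log2 scale (SE 0.31, adjusted p = 0.00774), from 49.7, 84.9 and 97.3 FPKM in the controls to 14.1, 12.4 and 24.2 FPKM, and Negr1 fell by 1.99. The median log2 fold change of this list at 72 h was -0.07 beside -0.16 over all genes.

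Integrin partners and sheddases had 0 of 14 called at 24 h and 5 of 14 lower at 72 h of inverse co-culture. These were the proteases Adam8 (-1.67), Adam17 (-0.82), Adam12 (-0.80), Mmp14 (-0.65) and Bace1 (-0.54), and no integrin chain was among them. Adam9, Adam10 and Adam15 of the same list were not called. Their means at 72 h were 236.4, 63.7 and 88.5 FPKM in inverse co-culture and 182.4, 69.3 and 112.0 FPKM in the controls. Adam17, which sheds VCAM1 and ALCAM from the cell surface, was at 22.3, 26.7 and 23.9 FPKM against 41.3, 39.0 and 49.4 FPKM. The median of the list at 72 h was -0.32 beside -0.16 over all genes, and 9.57% of all genes tested were called lower. NF-kB feedback genes, a readout of the pathway that induces Vcam1 and Icam1, had 0 of 11 called at 24 h and 0 of 12 at 72 h, with medians of 0.21 and 0.07 beside -0.06 and -0.16 over all genes. Among the stellate cell and fibroblast markers of the inverse model, Pdgfra (0.53) and Col3a1 (0.59) were higher and Acta2 (-1.01) was lower at 24 h, and Pdgfra (0.38) was higher and Lum (-1.59) lower at 72 h.

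**Figure D5:**
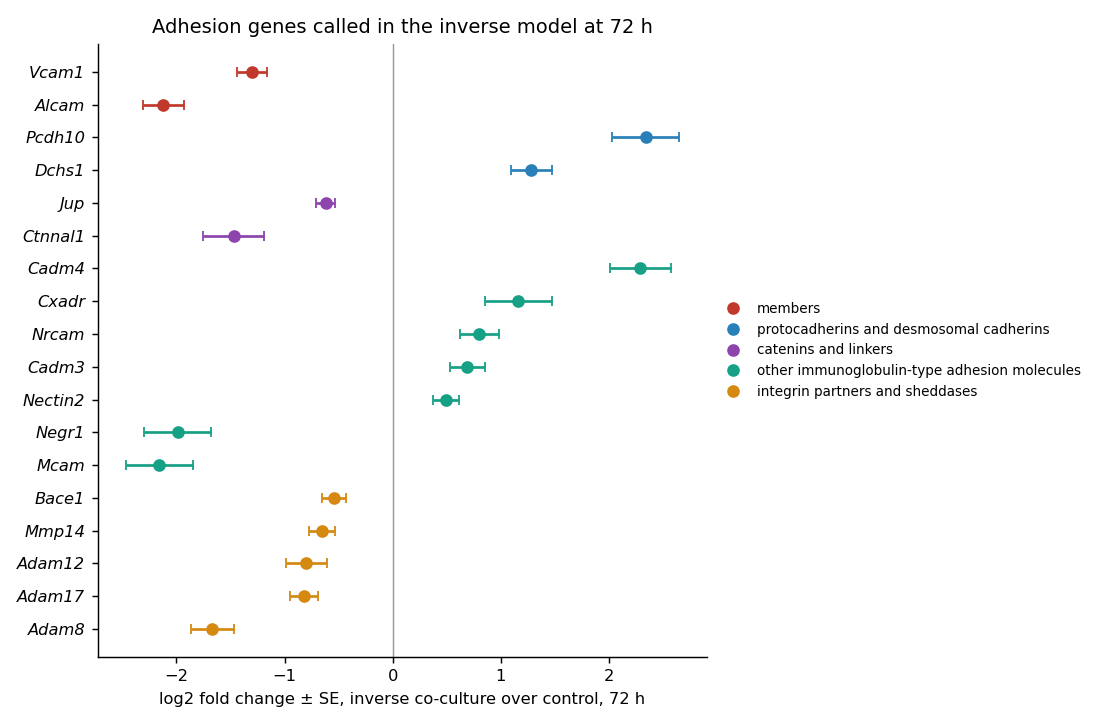
Log2 fold change with its SE (horizontal axis) of inverse co-culture over control at 72 h for the members and the genes of 4 adhesion lists that passed an adjusted p of 0.05, coloured by list. Pcdh10 (2.34) and Cadm4 (2.29) lie furthest to the right and Mcam (-2.16) and Alcam (-2.12) furthest to the left. The 5 sheddases that were called are below 0, and those not called are not shown.

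Over the 24 libraries, the members that were called had patterns close to those of other genes on log2(FPKM + 0.5). Among 14452 genes, Vcam1 was most like Adam17 (Pearson r = 0.961), Tcea3 (0.95) and Hsd17b11 (0.946). Alcam was most like Enpp4 (0.903), Atp6v1b2 (0.884) and Dock10 (0.88). Within the set of members, Cdh11 and Icam1 (0.90), Icam1 and Chl1 (0.882) and Cdh11 and Chl1 (0.813) were closest, and Vcam1 and Alcam had an r of 0.757. Ncam1 ran opposite to Alcam (-0.686) and Vcam1 (-0.532). These values are descriptions over libraries that share groups and, in the standard model, the low replicate 1.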

How the data were processed

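Polyadenylated RNA of PSC was sequenced in 24 libraries. According to the labels and the study's methods, the authors aligned reads with HISAT2 2.0.5 to GRCm38, counted fragments with featureCounts 1.5.0-p3 without stating the use of strand, and deposited FPKM values per gene. The authors' own tests used DESeq2 1.20.0 on counts that were not used here. Library totals and whole fragment numbers (tolerance 0.02) could be recovered from the deposited FPKM for 28889 of 28892 genes above 0. The length behind each FPKM follows from the same step.

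FPKM were tested with limma 3.58.1 (R 4.3.3; moderated, intensity trend, two-sided) as log2(FPKM + 0.5), a scale that understates changes of low genes. Genes were kept when 3 or more of the libraries entering a comparison exceeded an FPKM of 1. Benjamini-Hochberg adjustment covered all genes tested, and an adjusted p below 0.05 was called. Fits held the libraries compared, or all 24 for the difference between models. The fit was tried on simulated counts for inverse co-culture and for the difference between models, both at 72 h. These counts had the same dispersion for every gene and no link between same-numbered libraries. The simulation therefore says nothing on the wide replicate spread of the standard model. Alternatives were pseudocounts of 1 and 0.1, no filter, a mean FPKM above 5, median-ratio scaling, no trend, a replicate block, another set of libraries and leaving out each library. Added after seeing the data were voom on recovered fragments and leaving out both libraries of standard replicate 1 or 2, and combinations of the block with other pseudocounts, with voom or without standard replicate 1.

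Replicate numbers carried no stated pairing. They were taken to pair libraries where every same-number correlation of deviations from the group means exceeded 0.1, which held in the standard model. Members and lists were chosen with earlier results of these data known. Named genes are the members, called genes of 12 other lists (at most 6 per list and comparison), markers needed to show which are near 0, and the 3 genes most like each member called in a co-culture comparison. Gene positions are from GENCODE M21 on GRCm38, and 53706 of 53801 gene IDs matched.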

Additional observations from a re-analysis of the deposited data

Results flagged for a closer look

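Cdh13 met the rule for opposite effects in the 2 models at 24 h. Each of the 3 inverse co-culture libraries lay below the mean of its controls and each of the 3 standard co-culture libraries above it, with a difference between the effects of -1.04 on the log2(FPKM + 0.5) scale. Since Cdh13 did not pass the filter on low values, this difference was not tested in the planned fit. Without a filter its adjusted p was 1.0 (SE 0.44), and Cdh13 rested on 0 to 68 fragments per library.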

How the results depend on the processing

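Lower Alcam in inverse co-culture at 72 h was called in the reported fit and all 15 alternatives (log2 fold change -2.32 to -1.97, adjusted p 0.00152 to 0.0264), and lower Vcam1 in 14 of 15 (-1.40 to -1.14, adjusted p 0.0014 to 0.102). The exception was a common model of all 24 libraries, which called 1 member, Alcam, instead of 2. For the inverse controls over time, no filter and a mean FPKM above 5 each left 1 member called and the common model 0, and leaving out single libraries gave 1 to 2. The 1 member was Alcam without any of the 24 h controls or without replicate 1 of the 72 h controls, and without replicate 2 of the 72 h controls Ncam1 took the place of Chl1. At 24 h of inverse co-culture, leaving out single libraries gave 0 to 1 members called, which were Alcam without replicate 1 and Chl1 without replicate 3 of the co-culture. At 72 h it gave 2 to 3, with Ncam1 added without replicate 2 of the co-culture.

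With the replicate block, 2 members instead of 0 were called in standard co-culture at 24 h and 1 instead of 0 in the difference between models at 72 h. In the inverse model the numbers did not pair libraries (correlations -0.171 to 0.148), and the block added Icam1 between the inverse controls (adjusted p = 0.0443). The block alone changed no other call. Combined with the block, a pseudocount of 1, a pseudocount of 0.1 and voom each called 1 member, Vcam1, in standard co-culture at 24 h, and leaving out replicate 1 called 2. The difference between models at 72 h had 1 called with a pseudocount of 1 or voom and 0 with a pseudocount of 0.1 or without standard replicate 1. Without standard replicate 1 the blocked log2 fold change turned to -0.119 for Cdh11 at 24 h and to -0.014 for Icam1 at 72 h. These combinations were chosen after seeing the data.

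Cdh11 changed sign to -0.017 with voom in standard co-culture at 24 h, and to 0.035 and 0.134 with median-ratio scaling at 72 h in the standard and inverse model. That scaling moved the split of all called genes at 72 h of inverse co-culture from 427 higher and 1251 lower to 746 and 686. Leaving out libraries turned the sign of several log2 fold changes that were not called. At 24 h of standard co-culture these ranged from -0.471 to 0.370 for Cdh11, -0.672 to 0.980 for Icam1, -0.143 to 0.227 for Ncam1 and -0.181 to 2.406 for Chl1. At 72 h the ranges were -0.375 to 0.024 for Cdh2, -0.513 to 0.211 for Cdh3, -0.473 to 0.152 for Cdh11, -0.343 to 1.133 for Icam1 and -0.168 to 0.297 for Ncam1. At 72 h of inverse co-culture they were -0.650 to 0.185 for Cdh3, -0.067 to 0.031 for Cdh11 and -1.030 to 0.198 for Chl1. The cause was not tested.

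Over all genes, the 317 calls at 24 h of inverse co-culture became 50 without a filter, 98 without the trend, 88 with the block, 12 in the common model and 528 with voom. The 1678 calls at 72 h became 888, 1310, 902, 940 and 2086 in the same order, and the 2516 calls between the inverse controls 1425, 1993, 1993, 236 and 3072. Where 0 genes were called, the block gave 157 at 24 h and 1 at 72 h of the standard model and the common model 5 and 45. For the difference between models at 72 h no filter gave 5 and the block 16, and the time difference in the inverse model had 14 with voom. Cdh13 and L1cam rested on at most 68 and 106 fragments per library.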
